A study of Cucumis sativus with 9 samples.

Results

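*CsWRKY12* (CsaV3_2G032460) and *CsWRKY13* (CsaV3_2G032470) are 2 of the 61 cucumber WRKY genes and lie next to each other on chromosome 2. They are 2 of the 3 genes of group IIa, together with *CsWRKY38* on chromosome 4. The pair was chosen by its position and by its FPKM levels in these same libraries, in which the 2 genes differed in level and timing, so its own changes are described here without a test. Both genes passed the filter on low values, 2 of 24880 genes measured. The data are FPKM values (fragments per length of gene and per depth of library, so that levels can be compared between genes) from 9 RNA-seq libraries of whole leaves. HT0h, HT3h and HT6h are leaves of 3-week-old seedlings of the inbred cucumber 'Chinese long' 9930, grown at normal day and night temperatures and then held at 42 °C for 0 h (the untreated control), 3 h or 6 h, with 3 libraries each. All seedlings had the same growth conditions and genotype, and no unheated leaves of 3 h or 6 h were analysed here, so heat and the hour of sampling cannot be told apart. In whole leaves, fewer cells of a type and less RNA per cell cannot be told apart either.

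WRKY proteins are plant transcription factors named after a short peptide in their DNA-binding domain, which contacts a DNA element called the W-box. Group IIa proteins also carry a leucine zipper near their start, through which they pair with themselves and with each other. Their best known relatives, WRKY18, WRKY40 and WRKY60 of Arabidopsis, act in defence against pathogens and in the response to abscisic acid, the hormone of drought and stress. In Arabidopsis these 3 genes are partly redundant and some of them are induced quickly by pathogens and by stress.

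In the deposited annotation *CsWRKY12* ran from 21438787 to 21441053 on chromosome 2 and *CsWRKY13* from 21447808 to 21449327, both on the plus strand, with *CsWRKY12* upstream. No source used here names the genome build of these coordinates beyond the CsaV3 identifiers. The gap between them was 6754 bases and held no other gene model. *CsWRKY12* was listed with 1285 bases of transcript in a span of 2267 bases and *CsWRKY13* with 1007 bases in 1520, so that 982 and 513 bases of the spans lay outside the listed transcripts. In the RefSeq gene table of the Cucumber_9930_V3 assembly, the gene named *WRKY12* fell wholly within *CsWRKY12* and the gene LOC101204768 wholly within *CsWRKY13*. For *CsWRKY38* the gene in the same place is named *WRKY32* there, so the numbers of both naming schemes do not always match.

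The first 93 bases of the coding sequences of the 3 group IIa genes are shown because they cover the region in which a group IIa leucine zipper is sought. They come from the study's table of coding sequences, of which the first 393 bases per gene were readable. Capitals mark leucine codons that follow each other at every 7th codon, the spacing of a leucine zipper.
CsWRKY12: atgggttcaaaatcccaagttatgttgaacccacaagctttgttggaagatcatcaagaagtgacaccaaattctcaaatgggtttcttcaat
CsWRKY13: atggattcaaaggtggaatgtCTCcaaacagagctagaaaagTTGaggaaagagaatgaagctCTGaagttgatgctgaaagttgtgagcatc
CsWRKY38: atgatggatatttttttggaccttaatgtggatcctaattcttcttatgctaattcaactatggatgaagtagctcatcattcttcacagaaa

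*CsWRKY13* had leucine codons at positions 8, 15 and 22, counted from 1 at the start codon. The first 131 codons of *CsWRKY12* held 17 leucine codons and those of *CsWRKY38* held 13, with no 3 of them at this spacing. Among the 55 *CsWRKY* genes with a readable stretch, 6 had such a run of 3 leucine codons anywhere, and *CsWRKY13* was the 1 whose run began within the first 10 codons. A stretch of this length without the pattern says only that these codons are not in it. Along the readable stretches *CsWRKY12* and *CsWRKY13* shared no identical run longer than 9 bases, against 10 bases for *CsWRKY12* and *CsWRKY38* and 12 for *CsWRKY13* and *CsWRKY38*. The genes are neighbours by position, with a gap of 6754 bases. The study defined tandem duplication as more than 1 gene within a set distance on the chromosome. It reported no such event among cucumber WRKY genes, although the gap of this pair is far shorter than that distance. Whether one gene of the pair arose as a copy of the other was not tested here. The GC content of the stretches was 36.4% in *CsWRKY12*, 42.2% in *CsWRKY13* and 35.9% in *CsWRKY38*. Whether fragments that match more than 1 gene were counted is not stated.

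The DNA-binding signature of *CsWRKY13* is shown to place it in the family, as bases 283 to 381 of its coding sequence. Capitals mark the 7 codons of the WRKY peptide, the first of which is codon 99.
CsWRKY13: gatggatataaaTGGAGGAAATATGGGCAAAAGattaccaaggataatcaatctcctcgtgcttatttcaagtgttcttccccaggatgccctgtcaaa

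The same peptide of *CsWRKY12* was not within its readable stretch and is not shown.

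Depth was similar between libraries, with 19040644 to 19596994 fragments on genes in HT0h, 18972139 to 22942239 in HT3h and 18996991 to 22598046 in HT6h. Each FPKM value could be turned back into a whole number of fragments, and intervals given below are exact (Clopper-Pearson) 95% intervals of those fragments, which cover counting error only. HT3h_2 and HT6h_2 stood apart and were set aside by the study for poor uniformity. Their mean correlations with the HT0h libraries, as Pearson's r over genes, were 0.901 and 0.896, against 0.924 to 0.942 for the other heated libraries. Values are therefore given over all 9 libraries and, where they move, over the 7 that the study kept. The heat labels were matched by the small heat shock proteins, whose 32 genes had a summed level of 333 to 384 FPKM in HT0h, 1478 to 1789 in HT3h and 697 to 797 in HT6h. Chlorophyll a/b binding genes, which mark leaf mesophyll, were abundant throughout, with summed levels of 57580 to 64751 FPKM in HT0h, 22769 to 66871 in HT3h and 10556 to 24189 in HT6h. The 1 gene described as Rubisco small subunit, also a mesophyll marker, had 12904 to 15395, 6684 to 21310 and 10536 to 24366 FPKM. Its log2 change at 6 h was 0.20, against a median of −1.71 for the chlorophyll a/b binding genes, so the 2 mesophyll markers differed. Phloem protein 2 genes, which mark the vein, summed to 193 to 253, 269 to 428 and 354 to 521 FPKM. The part of these shifts in the values of the pair was not tested.

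*CsWRKY12* was nearly silent before heat, was higher at 3 h and was one of the more abundant *CsWRKY* genes at 6 h. *CsWRKY13* was the more abundant of the pair before heat, was lower at 3 h and was back near its starting level at 6 h. The order of the 2 genes was thus reversed between 0 h and 6 h.

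The levels of *CsWRKY12* were 0.376, 0.458 and 0.471 FPKM in HT0h_1, HT0h_2 and HT0h_3, from only 9, 11 and 11 fragments. In HT3h they were 1.296, 5.151 and 1.324 FPKM, from 33, 147 and 36 fragments. In HT6h they reached 18.1, 26.2 and 13.2 FPKM, from 466, 778 and 373 fragments. The values of the 3 time points did not overlap, and within HT3h the library HT3h_2 stood well above the others. Group means were 0.435 ± 0.0516, 2.59 ± 2.22 and 19.2 ± 6.54 FPKM (SD, n = 3 each). Without HT3h_2 and HT6h_2, the means of the 2 libraries left in each heated group were 1.31 ± 0.0201 and 15.7 ± 3.44 FPKM (SD, n = 2).

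Summed over libraries and scaled for depth, *CsWRKY12* had 6.12 times as many fragments in HT3h as in HT0h (95% interval 4.19 to 9.23), and 3.01 times (1.95 to 4.76) in the 7 libraries. From HT0h to HT6h the ratio was 44.5 (31.2 to 65.7), or 35.8 (25.0 to 53.0) in the 7 libraries. Between HT3h and HT6h it was 7.27 (6.31 to 8.42), or 11.9 (9.29 to 15.4) in the 7 libraries. HT3h_2 therefore decided how much of the increase fell before 3 h. On the log2(FPKM + 0.1) scale of the fit, which understates the change of low genes, the differences were 2.03 ± 0.51 (SE) at 3 h, 5.12 ± 0.51 at 6 h and 3.09 ± 0.51 between 3 h and 6 h. In the 7 libraries they were 1.40 ± 0.28, 4.87 ± 0.28 and 3.47 ± 0.30. The difference at 3 h was 39.7% of that at 6 h over 9 libraries and 28.8% over 7.

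*CsWRKY13* had 5.70, 6.00 and 4.81 FPKM in the HT0h libraries, 4.16, 3.04 and 2.63 FPKM in HT3h and 5.46, 7.78 and 5.03 FPKM in HT6h. Fragments numbered 107, 113 and 88, then 83, 68 and 56, then 110, 181 and 111. The HT3h libraries were the 3 lowest, below every library of the other time points, whereas HT0h and HT6h overlapped. Group means were 5.51 ± 0.620, 3.28 ± 0.792 and 6.09 ± 1.48 FPKM (SD, n = 3 each). The HT3h mean was 59.5% of the HT0h mean over 9 libraries and 61.6% over 7. The HT6h mean was 1.11 times the HT0h mean over 9 libraries and 0.952 times over 7, a difference within the spread of the libraries.

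Fragment ratios of *CsWRKY13* were 0.590 (0.492 to 0.706) for HT3h over HT0h, 1.11 (0.957 to 1.296) for HT6h over HT0h and 1.89 (1.59 to 2.24) for HT6h over HT3h. The log2 differences were −0.75 ± 0.25 (SE) at 3 h, 0.12 ± 0.25 at 6 h and 0.87 ± 0.25 between 3 h and 6 h, and −0.71, −0.06 and 0.65 in the 7 libraries. When fragments were scaled to each library's own total, the difference at 6 h was 0.28, since that scaling moved the median of all genes at 6 h from 0.01 to 0.16. Nothing in the dip at 3 h rested on HT3h_2, which had the middle value of its group.

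**Figure D1:**
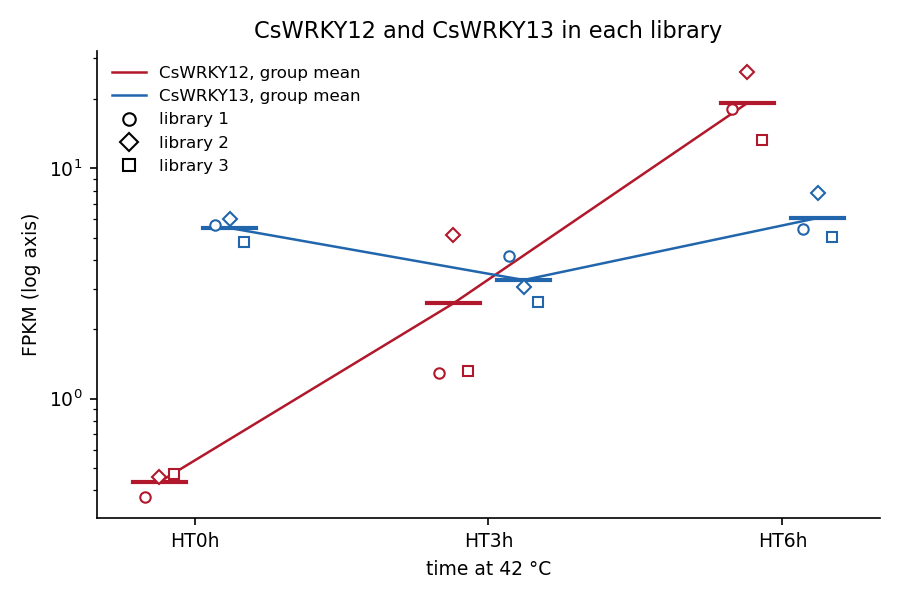
FPKM of *CsWRKY12* (red) and *CsWRKY13* (blue) on a log axis in the 3 libraries of each time point, with symbols for the library number, short bars and lines for the group means. *CsWRKY12* goes from 0.376 to 0.471 FPKM in HT0h to 13.2 to 26.2 in HT6h, with HT3h_2 above the other HT3h libraries, while *CsWRKY13* stays between 2.63 and 7.78 FPKM and is lowest in HT3h.

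For both genes, non-overlap of groups was read against all 19468 genes tested. The groups did not overlap in 51.3% of them between HT3h and HT0h, in 54.2% between HT6h and HT0h and in 11.5% between HT6h and HT3h. Since these levels chose the pair, its own non-overlap in 3 of 3 comparisons for *CsWRKY12* and 2 of 3 for *CsWRKY13* is a description. By size, the log2 difference of *CsWRKY12* was the 4th highest of 54 *CsWRKY* genes tested at 6 h and the 63rd highest of all genes tested. At 3 h it was 7th among *CsWRKY* genes and 779th among all. The difference of *CsWRKY13* at 3 h was the 11th lowest of the 54 *CsWRKY* genes.

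The ratio of the 2 genes within a library does not depend on the scaling of that library. *CsWRKY12* stood at 0.0659 (95% interval 0.0293 to 0.130), 0.0763 (0.0370 to 0.142) and 0.0980 (0.0472 to 0.184) of *CsWRKY13* in the HT0h libraries. In HT3h the ratios were 0.312 (0.202 to 0.472), 1.69 (1.26 to 2.29) and 0.504 (0.322 to 0.779). In HT6h they were 3.32 (2.69 to 4.12), 3.37 (2.86 to 3.98) and 2.63 (2.13 to 3.29). *CsWRKY13* was thus the higher gene in all HT0h libraries and in HT3h_1 and HT3h_3, and *CsWRKY12* was the higher gene in HT3h_2 and in all HT6h libraries. The order at 3 h therefore differed between libraries of the same time point. As log2 ratios the means were −3.66 ± 0.289, −0.64 ± 1.26 and 1.63 ± 0.199 (SD, n = 3 each), and −1.34 at 3 h without HT3h_2. The HT6h libraries, HT6h_2 among them, lay close together in this ratio although their *CsWRKY12* levels ranged from 13.2 to 26.2 FPKM.

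**Figure D2:**
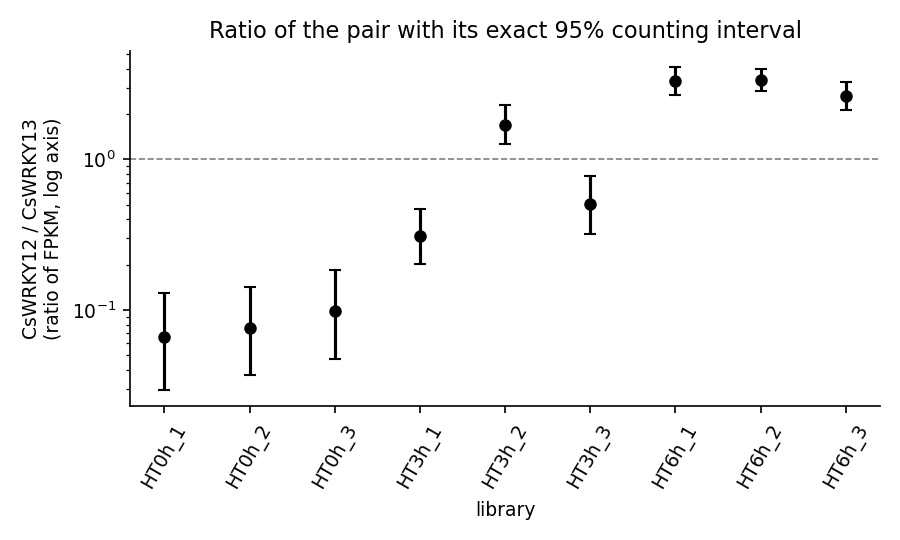
Ratio of *CsWRKY12* to *CsWRKY13* FPKM in each of the 9 libraries on a log axis, with exact 95% intervals from the fragments and a dashed line at equal levels. The ratio is below 0.1 in HT0h, between 0.312 and 1.69 in HT3h and between 2.63 and 3.37 in HT6h.

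Added together, the 2 genes had means of 5.94 ± 0.602 FPKM in HT0h, 5.87 ± 2.15 in HT3h and 25.3 ± 7.99 in HT6h (SD, n = 3 each). The HT3h sums were 5.45, 8.19 and 3.95 FPKM, so that the mean at 3 h rested on HT3h_2, and in the 7 libraries the means were 4.70 ± 1.06 at 3 h and 20.9 ± 3.74 at 6 h (SD, n = 2). The share of *CsWRKY12* in that sum was 6.18 to 8.92% in HT0h, 23.8 to 62.9% in HT3h and 72.5 to 77.1% in HT6h. The sum over group IIa was 10.4 to 12.7 FPKM in HT0h, 6.17 to 12.1 in HT3h and 22.8 to 38.9 in HT6h. *CsWRKY12* gave 3.61 to 4.49% of it in HT0h and 58.2 to 67.3% in HT6h. Within the whole family of 61 genes, whose summed level was 269 to 271 FPKM in HT0h and 545 to 1055 in HT6h, *CsWRKY12* made up 0.140 to 0.175% before heat and 2.43 to 3.22% at 6 h. *CsWRKY13* made up 1.79 to 2.22% before heat and 0.737 to 0.969% at 6 h, although its own level was about the same. Ranked by mean level, *CsWRKY12* was 39th of 61 *CsWRKY* genes in HT0h, 32nd in HT3h and 11th in HT6h. *CsWRKY13* was 16th, 28th and 23rd. Among all genes, *CsWRKY12* was higher than 30.2% of genes in HT0h, 42.6% in HT3h and 76.4% in HT6h, and *CsWRKY13* was higher than 52.0%, 45.0% and 52.4%.

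The pair was next set beside its nearest relatives, which the choice of the pair did not use. Calls were made in limma where the log2 change was at least 1 in size and the p adjusted by Benjamini and Hochberg over all genes tested was at most 0.05. The labels only number the libraries of a group, and the study states that there were 3 biological replicates. The p-values set a difference against the spread between these libraries, estimated over the 3 time points in 1 model. Both comparisons with HT0h share the HT0h libraries. At 3 h 20.4% of all genes tested were called, 10.9% higher and 9.57% lower. At 6 h 22.4% were called, 12.3% higher and 10.1% lower. Between 3 h and 6 h 0.375% were called, 0.175% higher and 0.2% lower.

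*CsWRKY38*, the remaining group IIa gene, had 4.34, 6.19 and 5.21 FPKM in HT0h, 3.41, 3.95 and 2.22 in HT3h and 4.87, 4.96 and 4.50 in HT6h. All HT3h libraries were below all others, as for *CsWRKY13*, and its HT0h levels were close to those of *CsWRKY13*. Among all genes tested, 51.3% had no overlap between HT3h and HT0h and 11.5% had none between HT6h and HT3h. The log2 differences of *CsWRKY38* were −0.72 ± 0.26 (SE, limma adjusted p = 0.0568) at 3 h and −0.12 ± 0.26 (adjusted p = 0.742) at 6 h, so it was not called. In the 7 libraries the value at 3 h was −0.89 (adjusted p = 0.0386), still short of the limit on size. Before heat *CsWRKY38* made up 41.6 to 49.6% of the group IIa sum, and 12.7 to 19.8% at 6 h.

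Of the 5 group IIb genes, the subgroup closest to IIa in sequence, 0 were called at 3 h by limma (0 at an unadjusted p under 0.05, and 0 by limma voom on fragments) and 2 were called higher at 6 h, *CsWRKY52* and *CsWRKY56*. *CsWRKY52* had 1.34, 1.51 and 1.28 FPKM in HT0h, 2.37, 4.03 and 1.70 in HT3h and 5.78, 6.18 and 2.82 in HT6h, a log2 rise of 1.69 ± 0.39 (SE, adjusted p = 0.01003) at 6 h. Like *CsWRKY12* it was highest at 3 h in HT3h_2 and at 6 h in HT6h_2, and its 3 h and 6 h libraries overlapped. The sum over all 61 *CsWRKY* genes was also highest in these libraries. That sum was 375 FPKM in HT3h_2 against 259 and 241, and 1055 in HT6h_2 against 563 and 545. *CsWRKY56* was listed at 0.272, 0.0247 and 0.0254 FPKM in HT0h, 0.0697, 2.74 and 0.980 in HT3h and 1.89, 6.48 and 0.841 in HT6h. It rose by 3.68 ± 1.07 (SE, adjusted p = 0.0259) at 6 h, but the call was lost without any 1 of HT0h_2, HT0h_3, HT6h_1 or HT6h_2 (adjusted p of 0.0593 to 0.0810). *CsWRKY1*, *CsWRKY3* and *CsWRKY23* had at most 0.666 FPKM in any library and were not called. Between 3 h and 6 h, 0 of these 6 relatives of the pair were called by limma, 1 had an unadjusted p under 0.05 and 0 were called by limma voom.

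**Figure D3:**
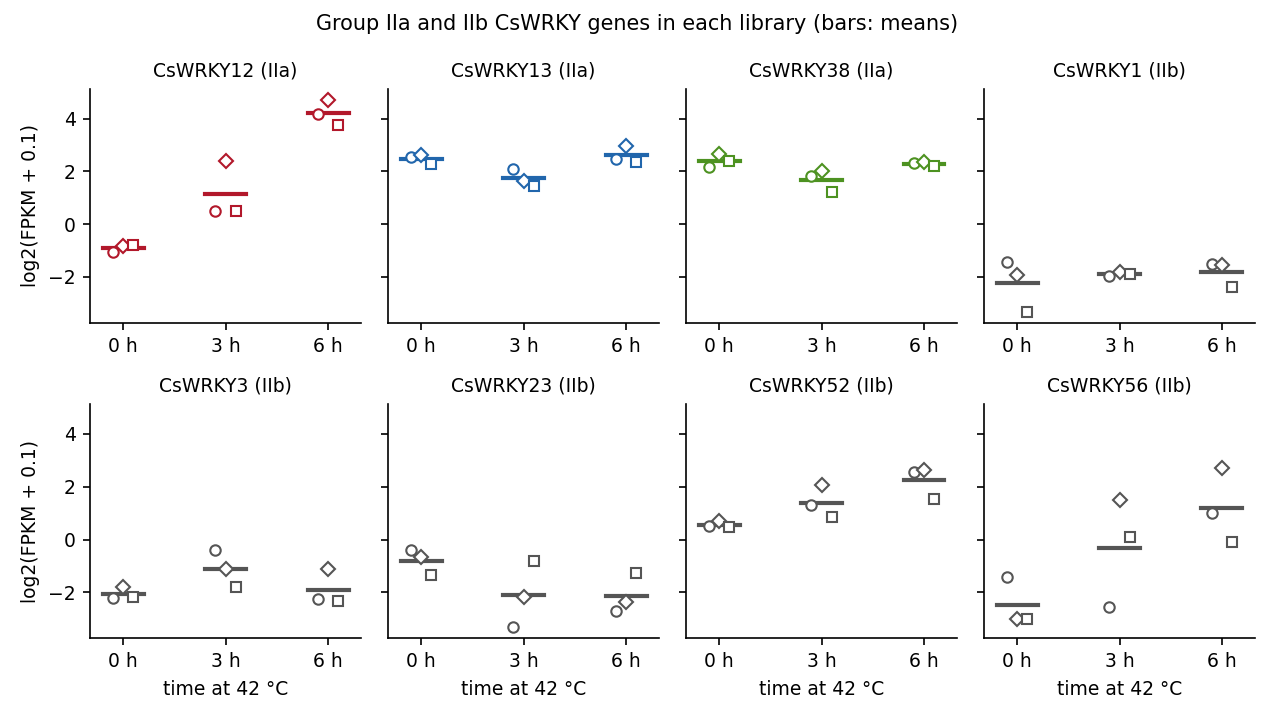
Log2(FPKM + 0.1) of the 3 group IIa genes and 5 group IIb genes in each library (symbols by library number), with bars for the group means. *CsWRKY12* goes from below to above the other group IIa genes, *CsWRKY13* and *CsWRKY38* are both lowest at 3 h, and *CsWRKY52* and *CsWRKY56* are higher at 6 h than at 0 h.

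Among the 52 other *CsWRKY* genes tested, 8 were called higher and 5 lower at 3 h, and 15 higher and 1 lower at 6 h. Between 3 h and 6 h, 2 were called higher and 0 lower by limma (0 lower at an unadjusted p under 0.05 and 0 by limma voom). The median log2 change of these 52 genes was 0.27 at 3 h and 0.32 at 6 h, against −0.01 and 0.01 over all genes. At 6 h, when 12.3% of all genes were called higher, the counts were 4 of 6 tested genes in group III, 5 of 18 in IIc, 2 of 5 in IIb, 2 of 10 in I, 1 of 5 in IIe and 1 of 7 in IId, and the 1 lower gene was in IIc. The genes lower at 3 h were 3 of IId and 2 of IIc. Group IIa had only *CsWRKY38* beside the pair. The 2 genes higher at 6 h than at 3 h were *CsWRKY10* of group IIc and *CsWRKY59* of group III, named after their values were seen. *CsWRKY10* had 2.35, 1.90 and 1.25 FPKM in HT0h, 20.98, 32.1 and 12.0 in HT3h and 75.2, 129.7 and 98.1 in HT6h. *CsWRKY59* had 2.45, 1.83 and 2.42 FPKM in HT0h, 6.67, 8.93 and 6.66 in HT3h and 24.2, 29.4 and 16.5 in HT6h. In both genes the libraries of the 3 time points were separate. Neither difference between 6 h and 3 h was called in the 7 libraries (adjusted p = 0.0578 and 0.0764).

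The surroundings of the pair were then examined, with 10 gene models on each side, 22 models in 170.386 kb. All 20 neighbours were tested, of which 6 were called at 3 h (3 higher and 3 lower) and the same number at 6 h (3 higher and 3 lower), and 0 between 3 h and 6 h by limma (0 at an unadjusted p under 0.05 and 0 by limma voom). In the 7 libraries 4 were called at 3 h and 5 at 6 h. These counts stand beside the 20.4% and 22.4% of all genes given above.

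The nearest model upstream of *CsWRKY12* was one without a CsaV3 identifier, at 21423430 to 21427337 on the same strand and 11449 bases away. It covers 99.7% of a RefSeq long noncoding RNA, LOC105434673, by which it is called here. Its levels were 0.486, 0.911 and 0.732 FPKM in HT0h, 9.64, 11.6 and 3.97 in HT3h and 8.69, 8.29 and 3.76 in HT6h. It rose by 3.29 ± 0.47 (SE, adjusted p = 0.00125) at 3 h and by 3.06 ± 0.47 (adjusted p = 0.00164) at 6 h. Its HT3h libraries were all above its HT0h libraries, as those of *CsWRKY12* were, and its HT3h and HT6h libraries overlapped. Next to it lay CsaV3_2G032450, with 57.6 to 66.0 FPKM in HT0h, 37.8 to 52.6 in HT3h and 33.2 to 47.9 in HT6h, not called. On the other side, 379 bases downstream of *CsWRKY13*, lay CsaV3_2G032480, with 1.95 to 2.46 FPKM in HT0h, 0.978 to 1.60 in HT3h and 1.19 to 1.95 in HT6h. Its HT3h libraries were all below its HT0h libraries, as for *CsWRKY13*, but it was not called (−0.77 ± 0.30 SE, adjusted p = 0.0774). HT3h and HT0h did not overlap in 51.3% of all genes tested, so this trait does not set LOC105434673 or CsaV3_2G032480 apart. CsaV3_2G032480 overlaps CsaV3_2G032490, a gene with NPH3 and BTB domains on the opposite strand, by 1288 bases. Since no source used here gives the strandedness of the libraries, the fragments of these overlapping models cannot be told apart.

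Farther out, CsaV3_2G032510, which encodes a protein with a plastocyanin-like domain, had 241, 183 and 230 FPKM in HT0h, 19.3, 2.04 and 17.7 in HT3h and 13.1, 15.4 and 16.5 in HT6h. It fell by 4.58 on the log2 scale at 3 h (SE 0.71, adjusted p = 0.00170) and the change at 6 h was −3.85 (adjusted p = 0.00366). In the 7 libraries, without the low value of HT3h_2, the changes were −3.55 at 3 h and −3.87 at 6 h. CsaV3_2G032560, with a cytochrome b5-like domain, rose by 2.59 ± 0.48 (SE, adjusted p = 0.00391) at 3 h from levels of 0.0677 to 0.279 FPKM in HT0h. CsaV3_2G032380, of unknown function, rose by 2.34 ± 0.45 (SE, adjusted p = 0.00473) at 3 h and by 1.67 at 6 h, where the call was lost without any 1 of HT0h_1, HT0h_3, HT6h_1 or HT6h_2 (adjusted p of 0.05997 to 0.0694). CsaV3_2G032440, without a described domain, fell at 6 h by 1.54 on the log2 scale, also in the 7 libraries, while its call at 3 h (−1.19, adjusted p = 0.0405) was lost in the 7 libraries (−0.79) and without any 1 of HT0h_1, HT0h_2, HT0h_3, HT3h_1, HT3h_2 or HT6h_1 (adjusted p of 0.0546 to 0.109). CsaV3_2G032570, a ribosomal protein S19 gene, fell by 1.27 at 3 h and by 1.13 at 6 h, and was called at neither time in the 7 libraries (−0.97 and −0.89). Its calls were also lost without HT0h_1 or HT0h_3, at 3 h without HT3h_1 or HT3h_2 and at 6 h without HT0h_2 or HT6h_2 (adjusted p of 0.0539 to 0.0943).

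**Figure D4:**
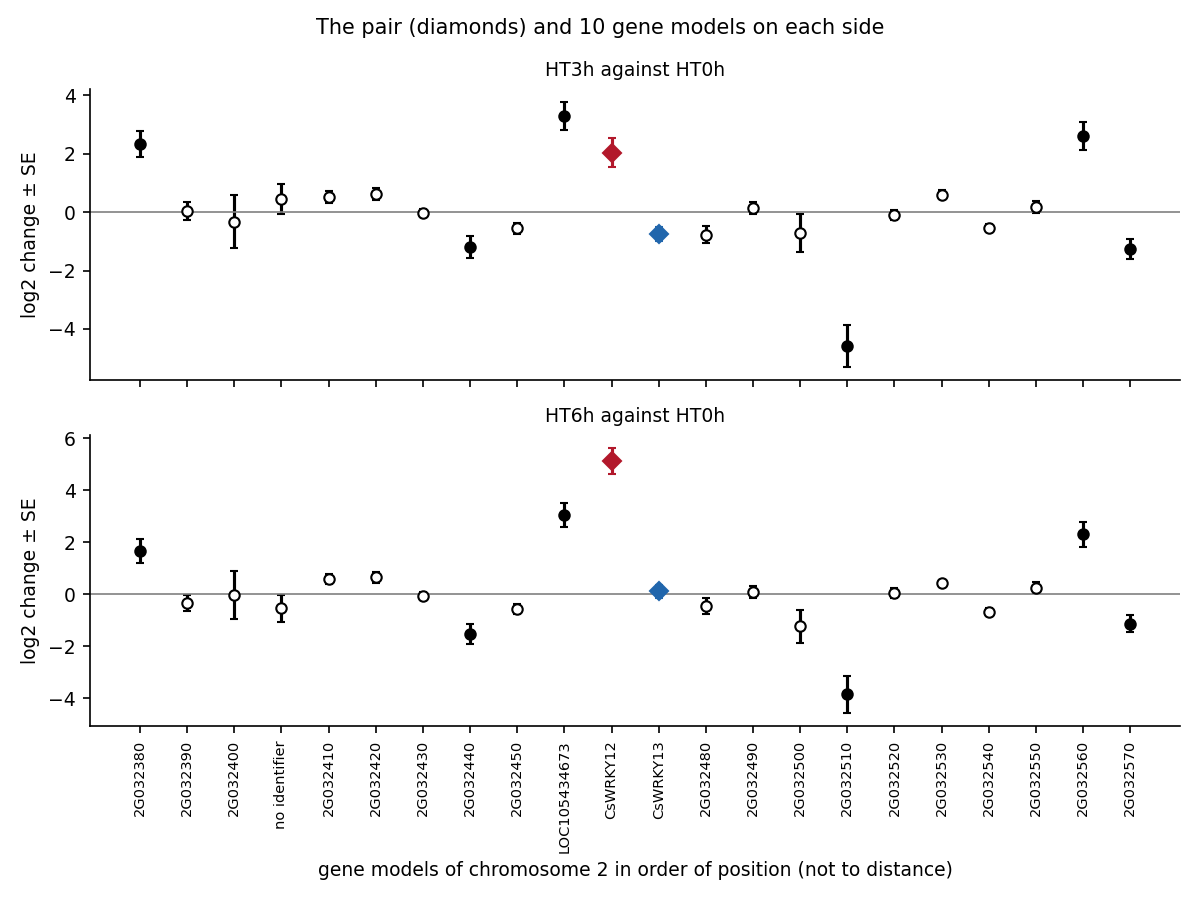
Log2 change with SE (limma) of *CsWRKY12* and *CsWRKY13* (diamonds) and of 10 gene models on each side in order of position, at 3 h (top) and 6 h (bottom), where filled circles are neighbours called and open circles neighbours not called. At 6 h *CsWRKY12* is the highest model at 5.12 and LOC105434673 beside it stands at 3.06, while *CsWRKY13* is near 0.

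Genes with the most similar profile were ranked by Pearson's r of log2(FPKM + 0.1) with each gene of the pair over the 9 libraries, which share their depth and scaling with the pair. The 2 genes of the pair had r = 0.218. With *CsWRKY12*, 77 of 19467 genes had r of 0.95 or more and 351 had 0.90 or more, whereas with *CsWRKY13* there were 1 and 14. The levels of *CsWRKY12* also spanned a wider range than those of *CsWRKY13*, and the part of this range in the counts was not tested. Since the genes named next were chosen for their likeness over these same libraries, the features they share with the pair follow from that choice and were not tested.

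The 5 genes highest in r with *CsWRKY12* had r of 0.983 to 0.988. They were CsaV3_3G033260 (no described domain), CsaV3_5G028230 (an RNA-dependent RNA polymerase, an enzyme of RNA silencing), CsaV3_5G002930 (an AMP-binding enzyme), CsaV3_1G011280 (a protein kinase with a salt stress response/antifungal domain, typical of cysteine-rich receptor-like kinases) and CsaV3_3G044850 (an EF-hand protein, which binds calcium). CsaV3_5G028230 and CsaV3_3G044850 were listed at 0 in all HT0h libraries and had 1.58 to 3.37 and 4.94 to 8.70 FPKM in HT6h. CsaV3_3G033260 went from 4.26 to 5.14 FPKM in HT0h to 17.6 to 29.3 in HT6h, close to *CsWRKY12* at 6 h but with a higher level before heat.

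The *CsWRKY* genes most like *CsWRKY12* were *CsWRKY50* (r = 0.981), *CsWRKY47* (0.980) and *CsWRKY32* (0.977). *CsWRKY50* had 0.0344 to 0.141 FPKM in HT0h, 1.03, 9.64 and 3.09 in HT3h and 36.6, 297 and 51.5 in HT6h, with HT6h_2 far above the others. *CsWRKY47* and *CsWRKY32* reached only 2.14 to 3.21 and 0.442 to 0.523 FPKM in HT6h.

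With *CsWRKY13* the 5 highest r were 0.918 to 0.954. The genes were CsaV3_3G000250 (a tyrosine kinase-like gene), CsaV3_3G007890 (with ORMDL and lecithin retinol acyltransferase domains), a gene model of chromosome 6 without a CsaV3 identifier (a SAM-dependent carboxyl methyltransferase), CsaV3_2G013440 (a chlorophyllase) and CsaV3_6G049070 (a protein kinase with EF-hands). CsaV3_3G000250 also had a similar level, with 5.26 to 5.94 FPKM in HT0h, 2.98 to 4.35 in HT3h and 5.03 to 7.58 in HT6h. CsaV3_2G013440 had 31.3 to 37.1 FPKM in HT0h, 16.9 to 22.9 in HT3h and 27.5 to 39.9 in HT6h. In 4 of them the HT3h libraries lay below those of the other times, while in CsaV3_3G007890 the highest HT3h library (28.6 FPKM) was just above the lowest HT6h library (28.5 FPKM). Among *CsWRKY* genes *CsWRKY20* (r = 0.904), *CsWRKY38* (0.792) and *CsWRKY16* (0.741) came first, of which *CsWRKY20* did not exceed 0.569 FPKM.

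**Figure D5:**
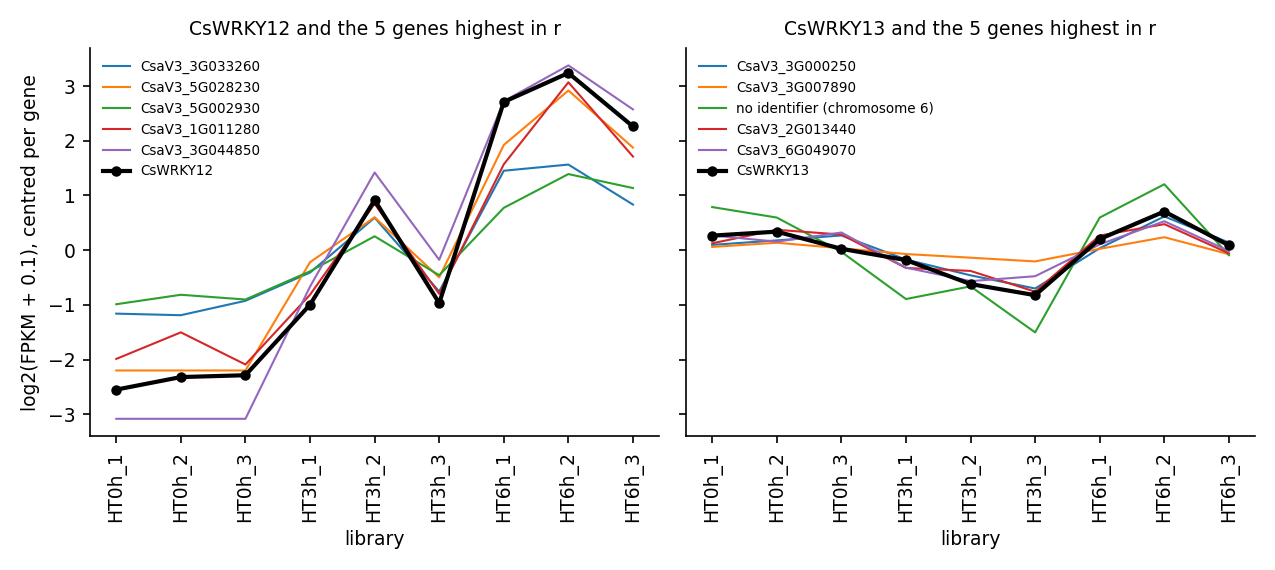
Log2(FPKM + 0.1), centred per gene over the 9 libraries, of *CsWRKY12* (left, black) and *CsWRKY13* (right, black) with the 5 genes highest in r with each (coloured lines). The left profiles climb to HT6h with a peak in HT3h_2, and the right profiles dip in HT3h over a much smaller range.

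Gene families tied to group IIa WRKY proteins in Arabidopsis were examined by the words of their descriptions. Such words do not show that a listed gene acts with the pair. VQ motif proteins bind WRKY proteins and adjust their activity. Of 23 tested, 3 were called higher and 3 lower at 3 h, and 5 higher and 1 lower at 6 h, with a median log2 change of 0.78 at 6 h against 0.01 over all genes. In the 7 libraries, of 22 tested, 0 were called higher and 3 lower at 3 h, and 6 higher and 1 lower at 6 h. For this list and those below, 10.9% of all genes tested were called higher and 9.57% lower at 3 h. At 6 h the shares of all genes were 12.3% and 10.1%, and between 3 h and 6 h 0.375% were called. CsaV3_5G036860 was the VQ gene with the largest rise at 6 h, from 1.69 to 2.74 FPKM in HT0h to 21.4 to 34.3 in HT6h (3.57 ± 0.41 SE, adjusted p = 0.000415). Its HT3h levels of 4.91, 11.4 and 3.45 FPKM were highest in HT3h_2, as were those of *CsWRKY12* and the sum over all 61 *CsWRKY* genes. Its profile had r = 0.983 with that of *CsWRKY12*. CsaV3_4G032360 rose by 2.21 ± 0.35 (SE, adjusted p = 0.00197) at 6 h.

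CsaV3_4G029660 had 0.801, 0.296 and 1.22 FPKM in HT0h, 0.641, 0.597 and 0.366 in HT3h and 5.85, 5.50 and 3.43 in HT6h. It rose at 6 h by 2.66 ± 0.47 (SE, adjusted p = 0.00314) and was 1 of 2 VQ genes called between 3 h and 6 h. The other, CsaV3_3G040160, was picked out after its values were seen. It had 36.7, 10.4 and 31.1 FPKM in HT0h, 2.16, 9.66 and 5.93 in HT3h and 60.5, 85.7 and 131 in HT6h. Like *CsWRKY13* it was lower at 3 h than at the other times in every library, over a wider range.

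The tify domain genes, which include the jasmonate ZIM domain repressors of jasmonate signalling, had 13 members tested. At 3 h 2 were called higher and 0 lower, and at 6 h 4 higher and 0 lower by limma (median log2 change 0.61 at 6 h). At an unadjusted p under 0.05, 1 was lower at 3 h and 0 at 6 h, and limma voom called 0 lower at either time. CsaV3_1G041270 had 7.69 to 9.27 FPKM in HT0h, 12.5 to 17.8 in HT3h and 19.3 to 46.5 in HT6h (1.77 ± 0.29 SE, adjusted p = 0.00228 at 6 h). CsaV3_3G046630 rose by 1.58 ± 0.30 at 3 h (adjusted p = 0.00437) and by 1.87 ± 0.30 at 6 h (adjusted p = 0.00196). CsaV3_6G051810 rose by 2.49 ± 0.74 (SE, adjusted p = 0.0284) at 6 h, a call lost without any 1 of the HT0h libraries, HT6h_1 or HT6h_3 (adjusted p of 0.0616 to 0.0826). Unlike *CsWRKY12*, both CsaV3_1G041270 and CsaV3_6G051810 were highest in HT6h_3, where *CsWRKY12* was lowest.

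Pathogenesis-related genes, listed together with thaumatin, chitinase and Bet v I genes, had 47 members tested. Of these, 1 was higher and 3 lower at 3 h and 6 higher and 3 lower at 6 h. Their median log2 change was −0.12 at 6 h. In the 7 libraries 5 were higher and 3 lower at 3 h, and 4 higher and 4 lower at 6 h. CsaV3_3G021460, of the Bet v I family, had 0 to 0.241 FPKM in HT0h, 0.111, 12.1 and 0.933 in HT3h and 13.4, 35.7 and 3.20 in HT6h (5.90 ± 1.38 SE, adjusted p = 0.0107). It stood highest in HT3h_2 and HT6h_2, as *CsWRKY12* and the sum over all 61 *CsWRKY* genes did. CsaV3_3G021220 of the same family was called at 6 h (4.56 ± 1.54 SE, adjusted p = 0.0458) but not in the 7 libraries (adjusted p = 0.0732), nor without any 1 of the HT0h libraries, HT3h_3, HT6h_1 or HT6h_2 (adjusted p of 0.0526 to 0.132). CsaV3_5G031770, also of this family, fell by 2.53 on the log2 scale at 6 h (adjusted p = 0.00184) from 852 to 987 FPKM in HT0h.

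Calmodulin-binding proteins, which relay calcium signals, had 30 members tested, with 6 higher and 1 lower at 3 h and 8 higher and 2 lower at 6 h. In the 7 libraries 4 were higher at 3 h, of 29 tested. The largest rises at 6 h were those of 3 consecutively numbered genes on chromosome 1, CsaV3_1G038380, CsaV3_1G038390 and CsaV3_1G038400, by 4.10 ± 0.75, 4.51 ± 0.57 and 4.30 ± 0.75 on the log2 scale (SE, adjusted p = 0.00365, 0.000643 and 0.00287). CsaV3_1G038390 was listed at 0 in all HT0h libraries and had 1.37 to 4.41 FPKM in HT6h. Of 3 genes described by abscisic acid, 0 were called by limma at 3 h and 0 at 6 h, while limma voom called 0 and 1, and 0 and 1 had an unadjusted p under 0.05. In the 7 libraries limma called 0 at 3 h and 1 higher at 6 h. Over these lists 19 of 116 genes were called at 3 h and 29 at 6 h, or 19 at 6 h without HT0h_3, in each case near the share of all genes called.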

How the data were processed

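RNA-seq was done on leaves of 3-week-old seedlings at 0 h, 3 h and 6 h of 42 °C, with 3 libraries each. For 24880 genes the authors deposited an FPKM value in each library, beside gene length, position, strand and description. The submitters' processing notes name CASAVA 1.8, HISAT2 2.0.5, StringTie 1.3.3b and featureCounts 1.5.0-p3 without giving their roles, and strandedness is not given in the sources used here. FPKM multiplied by gene length gave whole fragments for 100% of values, within 0.02 of a fragment. The scale implied by the values differed from the library totals by factors of 0.912 to 1.15.

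Log2(FPKM + 0.1) was fitted, for genes whose mean FPKM reached 0.1, with limma 3.58.1 in R 4.3.3, with the 3 time points in 1 model over all 9 libraries and a mean-variance trend. Calls needed an absolute log2 change of at least 1 and a p of at most 0.05 after Benjamini-Hochberg adjustment over 19468 genes. The methods of the study name no test for these libraries. The 7 libraries kept by the study, pseudocounts of 1 and 0.01, other filters, own-total scaling, limma voom on fragments, a replicate block and leaving out each library were alternatives. The fit was tested on simulated data. Both members, and the lists and rules used here, were chosen with earlier results of these data known.

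Genes named in the text are the pair, *CsWRKY38* and the 5 group IIb genes, the 2 nearest gene models on each side and any other of 10 on each side that was called, the 5 genes and 3 *CsWRKY* genes highest in r with each gene of the pair, and up to 3 genes per description list called at 6 h by size of change. CsaV3_3G040160, *CsWRKY10* and *CsWRKY59* were added after their values were seen. Words for mitogen-activated protein kinases, EDS1 or PAD4, isochorismate synthase and phenylalanine ammonia-lyase matched 0 descriptions, and those lists were left out. *CsWRKY* names and groups are those of the study. The RefSeq gene table (Cucumber_9930_V3, 23999 genes) matched 0 identifiers, so its genes were placed by position, which assumes that both use the same assembly. Protein and promoter sequences were not used here.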

Additional observations from a re-analysis of the deposited data

Results flagged for a closer look

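Among the group IIa and IIb relatives, the neighbours, the genes named from the description lists and the other *CsWRKY* genes, 4 are given here because their level at 6 h differed from that at 3 h by limma's test of that difference itself. No test is given for single genes named for their likeness to *CsWRKY12*, and the *CsWRKY* genes among them were not called in this comparison. CsaV3_4G029660 and CsaV3_3G040160 are VQ motif genes. CsaV3_4G029660 was 2.98 higher on the log2 scale in HT6h than in HT3h (adjusted p = 0.0401), with −0.32 at 3 h and 2.66 at 6 h against HT0h, and every HT6h library was above every other library. In the 7 libraries the difference was 2.96 with an adjusted p of 0.133. The call was also lost without any 1 library other than HT0h_2 (adjusted p of 0.0679 to 0.154). CsaV3_3G040160 was 4.11 higher in HT6h than in HT3h (adjusted p = 0.0346), with −2.17 at 3 h and 1.94 at 6 h, and with all libraries of the 3 time points separate. The call at 3 h was lost without any 1 of HT0h_1, HT0h_3 or HT3h_1 (adjusted p of 0.0716 to 0.0870), with no filter and with limma voom on fragments. The call at 6 h was lost in the 7 libraries (adjusted p = 0.0508), with no filter, and without any 1 of HT0h_2, HT0h_3, HT6h_2 or HT6h_3 (adjusted p of 0.0586 to 0.114). Between 6 h and 3 h the difference in the 7 libraries was 4.59 (adjusted p = 0.0677), and the call was lost without any 1 library other than HT0h_2 and HT3h_2 (adjusted p of 0.0658 to 0.107).

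*CsWRKY10* was 2.29 higher in HT6h than in HT3h (adjusted p = 0.0435), with 3.43 at 3 h and 5.72 at 6 h against HT0h. The call between 6 h and 3 h was lost without any 1 library other than HT3h_2 (adjusted p of 0.0665 to 0.167). *CsWRKY59* was 1.61 higher in HT6h than in HT3h (adjusted p = 0.0384), with 1.69 at 3 h and 3.30 at 6 h, and that call was lost without any 1 of the 9 libraries (adjusted p of 0.0505 to 0.165).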

How the results depend on the processing

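The log2 differences of *CsWRKY12* and *CsWRKY13* and the log2 ratio of the 2 genes stayed within 1 SD of their libraries under the alternatives tried, except that a pseudocount of 1 lowered *CsWRKY12* to 1.16 at 3 h and 3.76 at 6 h, as follows from its low HT0h level. Leaving out single libraries gave 1.40 to 2.36 at 3 h, 4.87 to 5.36 at 6 h and 2.76 to 3.72 between them for *CsWRKY12*, and −0.93 to −0.61, −0.06 to 0.25 and 0.69 to 1.05 for *CsWRKY13*. Calls in group IIa and IIb numbered 0 to 1 at 3 h and 1 to 2 at 6 h without single libraries, and 1 at 6 h with no filter and with limma voom on fragments. Calls in the description lists at 6 h ranged from 19 to 30 without single libraries. The comparison of 6 h with 3 h was the least stable. Its 73 calls over all genes became 39 in the 7 libraries, 12 with no filter and 2 to 68 without single libraries. The lists held 2 calls in the main fit, 1 with a pseudocount of 0.01, 0 with no filter and 0 to 2 without single libraries. They held 3 with a pseudocount of 1, with own-total scaling and with limma voom. In the 7 libraries neither of the 2 calls of the main fit was made. The 1 list call there was another VQ gene, CsaV3_5G036860, with a log2 difference of 2.69 (limma adjusted p = 0.0498). The cause of this instability was not tested.

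With the replicate number as a block, the fit gave 39 calls over all genes and 0 in the lists between 6 h and 3 h. Deviations of same-numbered libraries correlated at −0.229 to 0.480, and those of different-numbered libraries at −0.391 to 0.219. The highest values were those of HT3h_3 with HT6h_3 (0.480) and HT3h_2 with HT6h_2 (0.311). Whether the numbers pair the samples was not tested. Every number occurs in each time point, so the log2 differences of the pair (2.03 and 5.12 for *CsWRKY12*) could not change under the block. For the relatives, neighbours, list genes and other *CsWRKY* genes named beside the pair, 1379 values kept their side of the threshold, 130 lost it, 9 gained it and none reversed. Genes named only for their likeness to the pair are not among these values. The 9 to 11 fragments of *CsWRKY12* per HT0h library limit the precision of its fold change, and 3 libraries per time that of every test.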
